A study of Bos taurus with 32 samples.

Results

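The passage from the mature metaphase II (MII) oocyte to the 2-cell embryo of cattle was followed at adenosines of RNA that carried a called N6-methyladenosine (m6A) score in the immature germinal vesicle (GV) oocyte. Sites with a GV score of at least 0.1 were taken, 60417 of the 65535 adenosines analysed here, because later stages are listed in full only at these. The members were thus chosen by their GV scores, and their MII and 2-cell scores took no part in the choice. A site was called at MII or at the 2-cell stage when its score there was at least 0.1. A site called at both stages is referred to as kept, and one called at MII and not at the 2-cell stage as lost.

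m6A is a methyl mark placed on adenosines of RNA, mainly in the DRACH consensus, where a purine precedes the adenosine and a cytosine follows it, by the METTL3 and METTL14 methyltransferase with adaptor proteins such as WTAP. ALKBH5 and FTO can remove it, and proteins of the YTH and IGF2BP families bind it and affect the decay or the translation of the transcript. A growing oocyte stores maternal mRNA, transcription stays low through maturation and the first cleavages, and the embryo lives on stored transcripts until its own genome is activated.

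The study measured m6A with m6A-SAC-seq, which converts m6A to an allyl-modified base, and reverse transcriptase leaves a mutation at that base. Its labels describe 32 libraries from Bos taurus, 8 stages in an input and a treated arm with 2 replicates each, every replicate made from 200 cells. Follicles of 3 to 5 mm gave the oocytes, maturation in vitro took 22 to 23 h, and embryos were made by in vitro fertilisation for 18 h with Holstein semen and cultured until day 7.5. The MII and 2-cell groups share this source and differ in fertilisation and time in culture, which cannot be told apart here, and the titles of the treated 2-cell libraries name oocytes while their source field names embryos. The deposited table holds 1 score per adenosine and stage, so no value below has a replicate error and no test over samples was possible. Intervals are exact 95% Clopper-Pearson intervals that cover the counting of sites only, and sites that share a transcript do not vary independently. The read depth behind a score is unknown, and a listed 0 can mean an unmodified adenosine or no estimate. Less methylation, fewer copies of a transcript and fewer cells or embryos in a library therefore cannot be told apart at any site that lost its call.

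Oocyte transcripts carried calls at each of these stages. Of 10 oocyte markers, 9 had a GV-called site (ZP3 had none), and together they held 113 MII calls and 71 2-cell calls. Of 9 cumulus and granulosa markers 3 had a GV-called site, with 12 MII and 4 2-cell calls, and none of the 7 sperm or 3 blood markers had one, so FSHR, CYP19A1, PRM1, ODF1, HBB and PTPRC were without any.

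The sites below carry the main patterns, and each is shown as its 5-base motif in the sense of the transcript, 5′ to 3′, with the scored adenosine in capitals. Positions are those listed by the authors, and their genome build is not given in the sources used here. In this set BMP15 and RGS16 show kept sites with a lower score at 2-cell than at MII, AURKA a site with a high score throughout, PPP2R1A a site with a higher one, KMT2C a lost site, and NCOR1 a site called at 2-cell and not at MII.
BMP15, chromosome X, position 88810097, plus strand, coding sequence: ggAca
RGS16, chromosome 16, position 63648174, minus strand, 3′ UTR: ggAct
AURKA, chromosome 13, position 59562801, plus strand, coding sequence: gaAct
PPP2R1A, chromosome 18, position 58102479, plus strand, coding sequence: ggAca
KMT2C, chromosome 4, position 114635425, minus strand, coding sequence: ggAca
NCOR1, chromosome 19, position 33425028, plus strand, coding sequence: agAtt

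Few calls passed through fertilisation and the first cleavage at the same adenosine. Of the GV-called sites 34.1% were called at MII and 7.39% at the 2-cell stage. Of the 20625 MII calls, 3219 were kept, which is 15.6% (interval 15.1 to 16.1). At the 4-cell stage 8938 of the same MII calls, 43.3%, were called. Of the 39792 GV-called sites without an MII call, 1248 were called at the 2-cell stage, which is 3.14%. Hence 72.1% of all 2-cell calls stood at adenosines already called at MII. A lost site was nearly always listed at 0, since 17239 of the 17406 lost sites were listed at 0 and 167 kept a score above 0 and under 0.1.

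Scores close to the threshold were few at the 2-cell stage. The lowest 100 called 2-cell scores lay between 0.1002 and 0.111, and 269 further scores lay above 0 and under 0.1. Among the 1000 GV-called sites with the lowest GV scores, up to 0.103, 22.7% were called at MII and 8.3% at the 2-cell stage. Just outside, 497 adenosines with a GV score above 0 and under 0.1 had 90.7% MII and 10.9% 2-cell calls, but these were listed only because some stage was called. Called scores had a median of 0.228 at MII (quartiles 0.158 and 0.386), 0.293 at the 2-cell stage (0.192 and 0.477) and 0.218 at the 4-cell stage. Scores under 0.15 made up 21.6% of the MII calls and 12.8% of the 2-cell calls.

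Calls at the 2-cell stage were fewer and lay in fewer genes. At least 1 GV-called site was present in 6819 genes, an MII call in 4184 and a 2-cell call in 1531. Of the genes with an MII call, 29.2% kept at least 1. Reaching 50% of the calls took 674 of the 4184 genes at MII and 245 of the 1531 at the 2-cell stage. For kept sites it took 207 of 1222 genes, so calls lay about as concentrated within the genes that had any. Genes with 1 MII call kept 7.09% of them, those with 2 to 4 calls 8.34%, those with 5 to 9 calls 12.4%, those with 10 to 19 calls 21.4% and those with 20 or more 25.4%. The share kept was thus higher the more MII calls a gene had, whereas it had no such order across 10 equal classes of the site's own MII score, where it ran between 14.3% and 18.1%. Kept and lost sites had like MII scores, with medians of 0.224 and 0.228, and like GV scores, with medians of 0.244 and 0.236. Transcript level was not measured in this table, and its part in the differences by calls per gene was not tested.

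**Figure D1:**
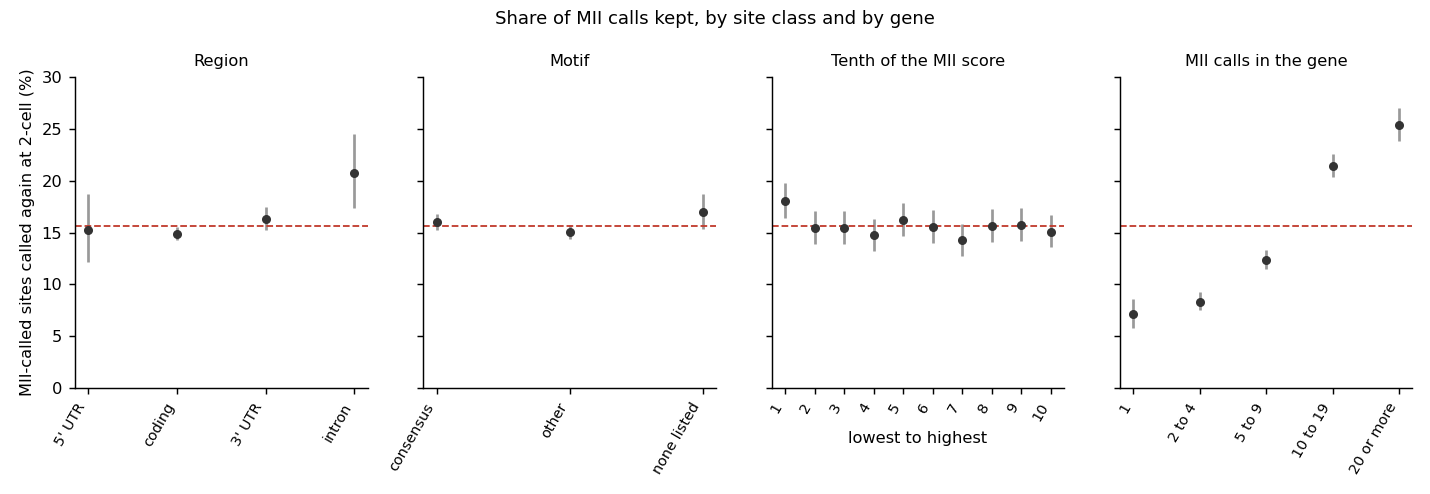
Share of MII-called, GV-called sites called again at the 2-cell stage (%), by region, by motif (the DRACH consensus, other motifs, none listed), by the MII score in 10 equal classes and by the number of MII calls in the gene. Points are shares, bars exact 95% intervals and the dashed line the overall 15.6%, from which the classes by MII calls per gene depart most, from 7.09% to 25.4%.

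In pairs pooled over genes, the state of a site went with that of the next MII-called site of its gene. Distances are between genomic positions and can span introns. When an MII-called site was kept, the next MII-called site of the same gene within 1 to 10 bases was kept in 41.8% of 122 pairs, against 15.5% of 478 pairs when the first was lost. At 11 to 100 bases the shares were 36.3% and 17.5%, and from there to 1000 bases they were 36.0% and 13.9%. Beyond 10000 bases they were 20.7% and 8.91%, so the difference was seen at each distance class. Genes differed in the share they kept, and the part of this in the pooled pairs was not tested.

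In the 498 named protein-coding genes that had 10 or more MII calls, the median gene kept 16.7% of them (quartiles 8.33% and 30.0%). Of these genes, 42, or 8.43%, kept at least 50%, and 75, or 15.1%, kept none. The 15 genes that kept the most calls beyond the overall share held 356 MII calls and kept 214. The 15 at the other end held 345 MII calls and kept 2. Since these genes were ranked by the calls they kept, the values describe them and test nothing.

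The gene with the most kept calls beyond the overall share was BMP15. BMP15, an oocyte growth factor of the TGF-beta family that acts on granulosa cells, had 28 GV-called sites, 24 MII calls and 21 2-cell calls, of which 19 were kept. Its calls then numbered 22, 20, 11, 3 and 0 at the 4-cell, 8-cell, 16-cell, morula and blastocyst stages. GDF9, its partner in the same family, kept 8 of 16 MII calls. HBEGF, a membrane-bound ligand of the EGF receptor, kept 10 of 14. RGS16, which speeds the turning-off of G proteins, kept 14 of 18, with 11 of the 14 3′ UTR calls among them. CTNND1, a catenin that stabilises cadherins at the membrane, kept 18 of 37 and had 6 further calls that MII lacked.

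Oocyte genes of the NLRP family kept calls to different degrees. NLRP8 kept 14 of 17 MII calls, NLRP14 kept 15 of 32, NLRP5, a maternal-effect gene of the subcortical complex in mouse, kept 9 of 20, NLRP9 kept 9 of 25 and NLRP13 kept 4 of 13. These values ran from above 80% in NLRP8 (82.4%) to 30.8% in NLRP13, all above the overall 15.6%.

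The meiotic arrest and M-phase list kept 85 of 409 MII calls, 20.8%, with a median gene at 14.3%, by 21 of 46 genes. The genes named here lie towards its ends. AURKA, a kinase of spindle assembly, kept 13 of 16 MII calls, CCNB1, the cyclin of M-phase entry, kept 8 of 12, and CDCA8, a subunit of the chromosomal passenger complex, kept 9 of 18. MOS, the kinase that holds the egg in metaphase II, kept all 6 of its MII calls and OOSP2, an oocyte-secreted protein, all 7. These were the 2 genes with at least 5 MII calls that lost none, and both were singled out after their values were seen. In contrast, ESPL1, the separase that cleaves cohesin, kept 0 of 19. CENPF, a kinetochore protein, kept 7 of 62 and CKAP5, a microtubule polymerase, 3 of 28. CDC20, an activator of the anaphase-promoting complex, kept 0 of 9.

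The other genes that kept most were of varied function. PAIP1, a partner of the poly(A)-binding protein, kept 13 of 21, LIG1, the replicative DNA ligase, 13 of 19, CS, citrate synthase, 13 of 16, and MSX1, a homeobox transcription factor, 11 of 13. DCAF1, a substrate receptor of a cullin ubiquitin ligase, kept 15 of 35, LEO1, a subunit of the PAF1 elongation complex, 15 of 39, and EZR, which ties actin to the membrane, 12 of 20. ANKRD17, an ankyrin-repeat protein, kept 17 of 33, and ACCSL kept 12 of 16. CS and EZR had 22 and 21 blastocyst calls, whereas BMP15, NLRP8, RGS16 and LEO1 had 0 there.

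Large regulators of chromatin and transcription made up much of the other end. KMT2C, a histone H3 lysine methyltransferase, had 41 MII calls and 0 at the 2-cell stage. NCOR1, a corepressor of nuclear receptors, kept 0 of 21, MED13L of the Mediator kinase module 0 of 20, and MYBBP1A, a nucleolar regulator, 0 of 21. ZNF215, a zinc finger protein, kept 0 of 24 and CMTR1, which methylates the mRNA cap, 0 of 18. WDR19, a subunit of intraflagellar transport, kept 0 of 25, CAND1, an exchange factor of cullin ligases, 0 of 24, MYO5B, a vesicle motor, 0 of 20, PLEKHA7, a protein of adherens junctions, 0 of 18 and FAM222B 0 of 19. NHSL1 kept 1 of 33 and KIDINS220, a scaffold of neurotrophin signalling, 1 of 24. In these 15 genes 124 of the 343 lost calls, 36.2%, were back at the 4-cell stage, near the 37.7% of all lost sites.

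**Figure D2:**
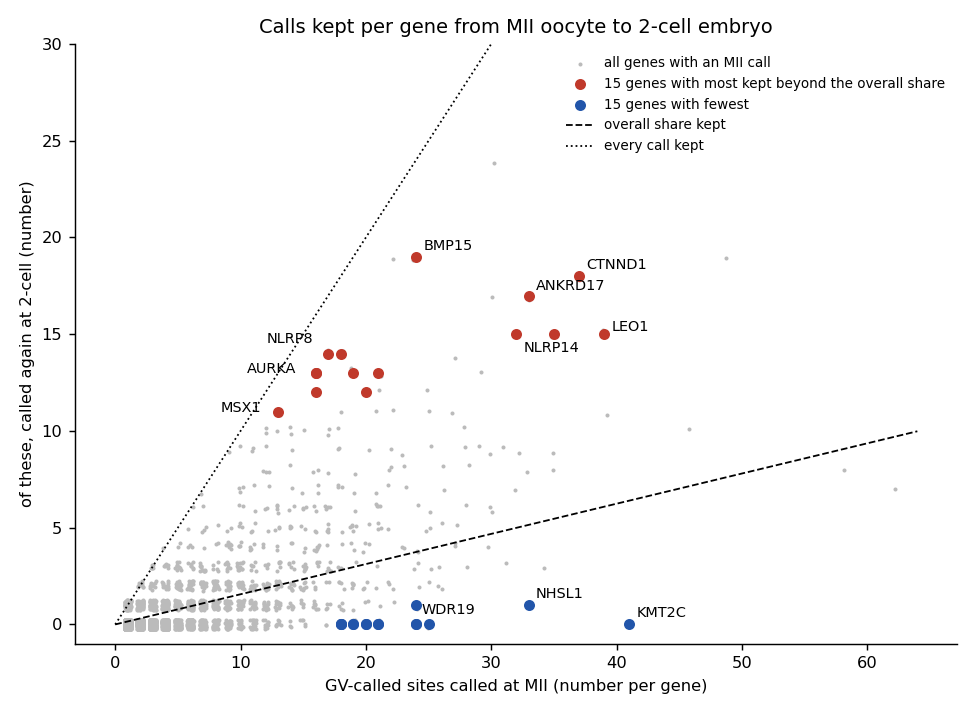
Number of GV-called sites called at MII (x axis) against the number of these called again at the 2-cell stage (y axis), per gene, with small shifts added to the grey points so that they do not overlap. Red points are the 15 genes with the most kept calls beyond the overall share (214 of 356), blue points the 15 with the fewest (2 of 345), the dashed line is the overall 15.6% and the dotted line marks every call kept.

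The 75 genes that kept none had calls again at the next stage. Their 1016 MII calls included 350, or 34.4%, that were called at the 4-cell stage, against 37.7% of all lost sites. All 75 genes had a 4-cell call at some GV-called site, 74 of them at a site that MII had called, and 27 had a 2-cell call at a site that MII lacked. NCOR1 had 23 4-cell calls and KMT2C had 19. In KMT2C the ggAcc site at position 114640393 had a score of 1.10 at GV, 0.758 at MII, 0 in 2-cell and 0.604 in 4-cell embryos. Its ggAca site at position 114635425, with 5.26 at GV and 4.77 at MII, was listed at 0 from the 2-cell stage to the morula and at 3.804 in the blastocyst. In NCOR1 the agAtt site at position 33425028 had 0.427 at GV, 0 at MII, 0.616 in 2-cell and 0.400 in 4-cell embryos.

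**Figure D3:**
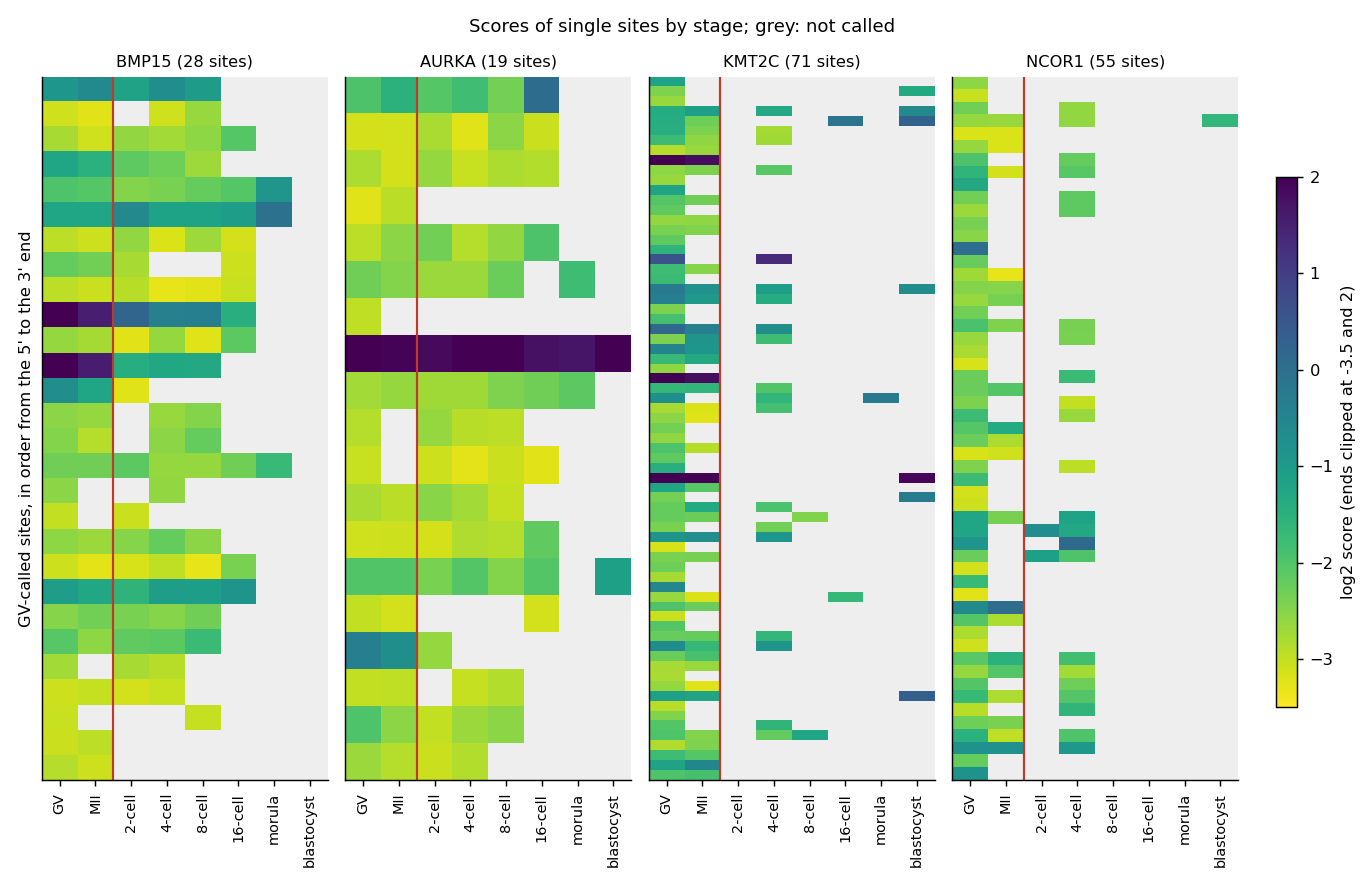
Scores of all GV-called sites (rows, from the 5′ to the 3′ end) of BMP15, AURKA, KMT2C and NCOR1 across the 8 stages (columns), as log2 score with the ends clipped, grey where the site was not called and a red line between MII and 2-cell. BMP15 and AURKA hold their rows across that line with 21 and 15 2-cell calls, while KMT2C has 0 and NCOR1 has 2, and they have 19 and 23 calls at the 4-cell stage.

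Kept sites were called more often later on. Of the kept sites 74.0% were called in 4-cell, 46.8% in 8-cell and 23.8% in 16-cell embryos, 17.1% in morulae and 21.5% in blastocysts. Of all MII calls, 43.3% were called at 4-cell and 19.8% at 8-cell. Lost sites were called again in 37.7%, 14.8%, 9.57%, 6.75% and 11.5%. Sites called at the 2-cell stage and not at MII were near the lost sites at the 4-cell stage, with 35.7%, and above them at the 8-cell stage, with 20.2%. Sites called at neither stage had 11.2% and 3.37%. No later call was listed for 16.8% of the kept and 49.9% of the lost sites, so the lost sites split almost evenly into those with and without a later call.

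Gene groups differed in how many MII calls they kept, and the lists are described against the 15.6% of all sites and the median of 11.1% over 1282 genes with at least 5 MII calls. The oocyte and maternal-effect list kept 138 of 308 calls, 44.8% (39.2 to 50.5), with a median gene at 40%, and 24 of its 32 genes with an MII call kept at least 1. Beside the genes above, BTG4, an adaptor of maternal mRNA deadenylation, kept 6 of 10, PADI6, of the cytoplasmic lattices in mouse, 5 of 9, ZAR1L, an oocyte RNA-binding protein, 6 of 7 and ZP2, of the egg coat, 4 of 11. WEE2, an oocyte kinase that inhibits CDK1, kept 6 of 21. TLE6, another gene of the subcortical complex, kept 2 of 10.

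Genes of TGF-beta, BMP and WNT signalling kept 49 of 163, 30.1%, but by 10 of 30 genes. BMP15, MSX1 and GDF9 supplied most of it, and without BMP15 the share was 21.6%. BMP6, a ligand, kept 0 of 9, SMAD2, a signal transducer, 0 of 8 and CTNNB1, beta-catenin, 2 of 15.

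Genes of translational control kept 77 of 287, 26.8%. CPEB1, which binds the cytoplasmic polyadenylation element, kept 9 of 14, EIF4A1, the helicase of the cap-binding complex, 9 of 11, EIF4ENIF1, which represses cap-bound mRNA, 7 of 23 and the reader IGF2BP3 7 of 21. PABPC1, a cytoplasmic poly(A)-binding protein, kept 1 of 11, and STAU1, a double-stranded RNA-binding protein, 0 of 11. EIF4A2, close in sequence to EIF4A1, kept 3 of 14, and the counting of reads between such copies is not given in the sources used here. Maternal mRNA decay, a list beside it, kept 24 of 171, 14.0%. There CNOT6L, a deadenylase, kept 5 of 19, CNOT1, the scaffold of its complex, 1 of 18 and ZFP36L1, which recruits it to AU-rich elements, 2 of 20.

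Writers, erasers and readers of m6A had few calls of their own. The writer complex kept 3 of 26 calls, with 1 each in RBM15B, CBLL1 and WTAP. The eraser ALKBH5 kept 7 of 10 and had 4 more 2-cell calls, but with calls from a score of 0.2 its share was 25% instead of 70%. The readers kept 8 of 39, of which 7 lay in IGF2BP3, and YTHDF1 kept 0 of 6. Without IGF2BP3 the reader share was 5.56%, and with calls from 0.2 it was 8.70%.

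The lists of DNA methylation and histone methylation differed in their pooled shares. The DNA methylation list kept 25 of 100, by 5 of 9 genes, and most of its kept calls lay in UHRF1 and UHRF2. Its median over only 7 genes with at least 5 MII calls was 16.7%, against 11.1% over the 1282 genes with as many. UHRF1, which brings the maintenance methylase to replicated DNA, kept 9 of 18 and UHRF2, a relative of UHRF1, 9 of 32, while DNMT1, that methylase, kept 1 of 12 and TET3, which oxidises methylcytosine, 2 of 12. The histone methyltransferase and demethylase list kept 8 of 161, 4.97% (2.17 to 9.56), by 5 of 21 genes. SETDB1, an H3 lysine 9 methyltransferase, kept 2 of 24, KMT2B 1 of 12, and CARM1, an arginine methyltransferase, 3 of 10. Remodellers and corepressors kept 30 of 203, 14.8%, with 10 of 17 in RBBP7, a histone chaperone, 7 of 19 in GATAD2A of the NuRD complex and 3 of 25 in SIN3A, a corepressor scaffold. Histone H1 genes, chosen after their values were seen, kept 10 of 12 in H1-5, 5 of 7 in H1-4 and 5 of 9 in H1-1. These genes have near-identical copies, and the sites listed under H1-5 span positions of chromosome 23 from 30966004 to 31355053, so their gene is uncertain.

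Several groups of general cell function kept a lower share than all sites. DEAD and DEAH box helicases kept 5 of 118, 4.24%, with 3 of 31 in DDX3X. Centrosome and cilium genes kept 4 of 80, 5.00%, but 14.3% at their DRACH sites, near the 16.0% of all DRACH sites. Proteasome subunits kept 4 of 65, 6.15%, ZNF genes 9.32% and solute carriers 9.88%. The intervals of 3 further lists included the overall share, with nuclear-encoded oxidative phosphorylation genes at 6.12% (1.28 to 16.9), mitochondrial ribosomal protein genes at 6.52% (1.37 to 17.9) and kinesins at 9.62% (4.71 to 17.0). Cytosolic ribosomal protein genes kept 10 of 68, 14.7%. Chaperones kept 53 of 251, 21.1%, with 12 of 25 in DNAJB1 and 8 of 22 in HSP90AA1, both of the heat-shock system. Cortical cytoskeleton genes kept 59 of 335, 17.6%, with 11 of 39 in the formin FMNL2, 10 of 46 in the spectrin SPTAN1 and 3 of 34 in the spectrin SPTBN1. Egg activation genes kept 24 of 100, with 7 of 32 in ATP2A2, the calcium pump of the endoplasmic reticulum. The number of MII calls per gene also differed between lists and, as shown above, went with the share kept, and its part in these shares was not tested.

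**Figure D4:**
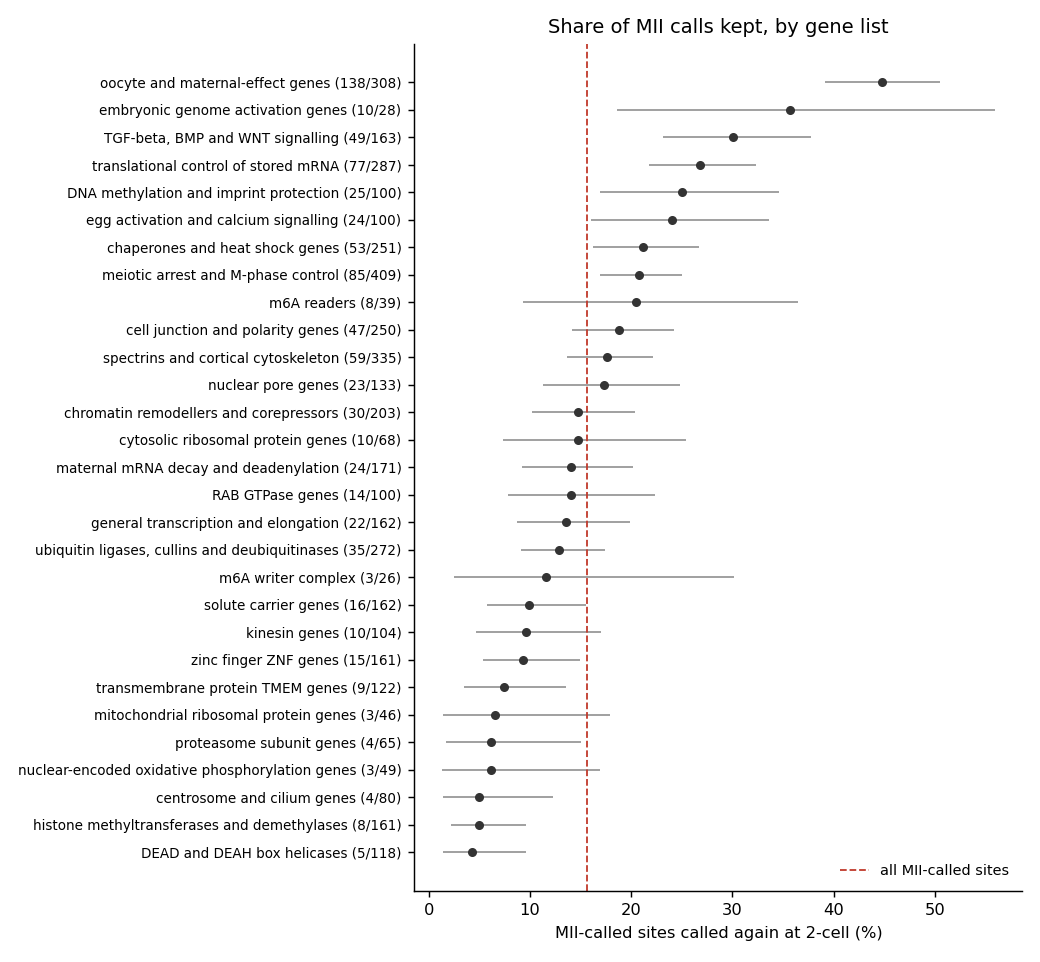
Share of MII-called sites called again at the 2-cell stage (%), per gene list, with kept and MII calls in brackets. Points are shares, lines exact 95% intervals for counting error and the dashed line the overall 15.6%, with the oocyte list at 44.8% at the top and the helicases at 4.24% at the bottom of the lists drawn, which leave out those with under 20 MII calls (ALKBH5 as the m6A demethylases, cumulus markers, sperm and blood).

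Coding sequence and the UTRs kept like shares, and introns a higher one. Coding sequence kept 1966 of 13200 calls, 14.9% (14.3 to 15.5), 3′ UTRs 746 of 4562, 16.4%, 5′ UTRs 74 of 486, 15.2%, and introns 108 of 520, 20.8% (17.4 to 24.5). The 3′ UTR exceeded coding sequence by 1.46 percentage points (0.245 to 2.71), but with calls from 0.2 by 0.785 (-0.644 to 2.27), an interval that includes 0. Compared inside each of 1514 genes with both the difference was 0.323 points. Calls that only the 2-cell stage had were likewise spread, at 3.60% of eligible 3′ UTR sites and 3.04% of eligible coding sites.

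Outside protein-coding genes, small and repeated RNAs kept more. Sites listed in rRNA kept 17 of 23, those in misc_RNA 13 of 18 and those in snRNA 13 of 25, against 11 of 64 in snoRNA, 22 of 139 in lncRNA and 0 of 7 in scaRNA. Copies of these genes are near-identical, so the copy to which a site belongs is uncertain.

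Pooled over genes, DRACH and other motifs kept like shares, while inside genes DRACH sites kept more. DRACH sites kept 1333 of 8319 MII calls, 16.0%, and other motifs 1561 of 10394, 15.02%, a difference of 1.01 points (-0.0370 to 2.05). Compared inside each of 2070 genes with both, DRACH sites kept 5.02 points more. Any score above 0 as a call gave a difference of 0.188 points. Among motifs with over 100 MII calls, the share ran from 11 of 199, or 5.53%, at tgAta to 36 of 189, or 19.05%, at the tgAtc motif, a pair singled out after their values were seen. The frequent consensus motifs kept 16.8% at ggAct, 16.9% at the agAct motif, 18.2% at the agAcc motif and 13.1% at ggAca.

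Scores of kept sites were mostly higher at the 2-cell stage, but not in every motif. Over the 3219 kept sites the score was higher at the 2-cell stage in 2171 and lower in 1039, and the log2 ratio of the 2-cell over the MII score had a median of 0.29 (quartiles -0.14 and 0.80). The median was 0.63 at agAtg, which is outside the consensus, 0.49 at the agAcg motif and 0.44 at the agAcc motif. The most frequent consensus motif, ggAct, had a median of -0.05, and ggAca had 0.05. A kept site cannot score below 0.1 at the 2-cell stage, and the lowest of the 10 classes of MII score had a median of 0.75 while the highest had -0.07, so ratios are read here beside scores of like height.

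Among genes with 10 or more MII calls, those that kept few of them had the higher ratios. In this set the median log2 ratio was 0.55 over 367 kept sites of genes that kept under 20%. It was 0.34 at 20 to 40%, 0.19 at 40 to 60% and 0.07 over 357 sites of genes that kept at least 60%. The scores were not of like height, with medians at MII and 2-cell of 0.260 and 0.393 in genes that kept under 20%. In genes that kept at least 60% they were 0.184 and 0.195. These classes are set by the same 2-cell scores that enter the ratio, so the order of the ratios tests nothing. In the 42 genes keeping at least 50%, with 403 kept sites, DRACH sites had a median of -0.09 over 164 sites and other motifs 0.22 over 225, with median MII scores of 0.240 and 0.159. Over all kept sites both medians were above 0, at 0.16 for 1333 DRACH sites and 0.41 for 1561 sites of other motifs. Among DRACH sites of the 42 genes with a GV score of at least 0.442, the upper quartile of kept sites, 42 of 57 had a lower score at the 2-cell stage and the median was -0.53. Those sites lay in 25 genes, 17 of which had a median below 0, and leaving out each gene in turn gave -0.76 to -0.50. At other motifs with GV scores of that height the median was 0.30, over 16 sites. Over all kept sites the same classes had medians of -0.13 (530 DRACH sites) and 0.22 (165 sites of other motifs). Both classes were picked for a high GV score, and in the 42 genes the median score was already lower at MII. There the log2 ratio of the MII over the GV score had medians of -0.42 at DRACH sites and -0.15 at other motifs. These classes were chosen after the scores were seen.

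**Figure D5:**
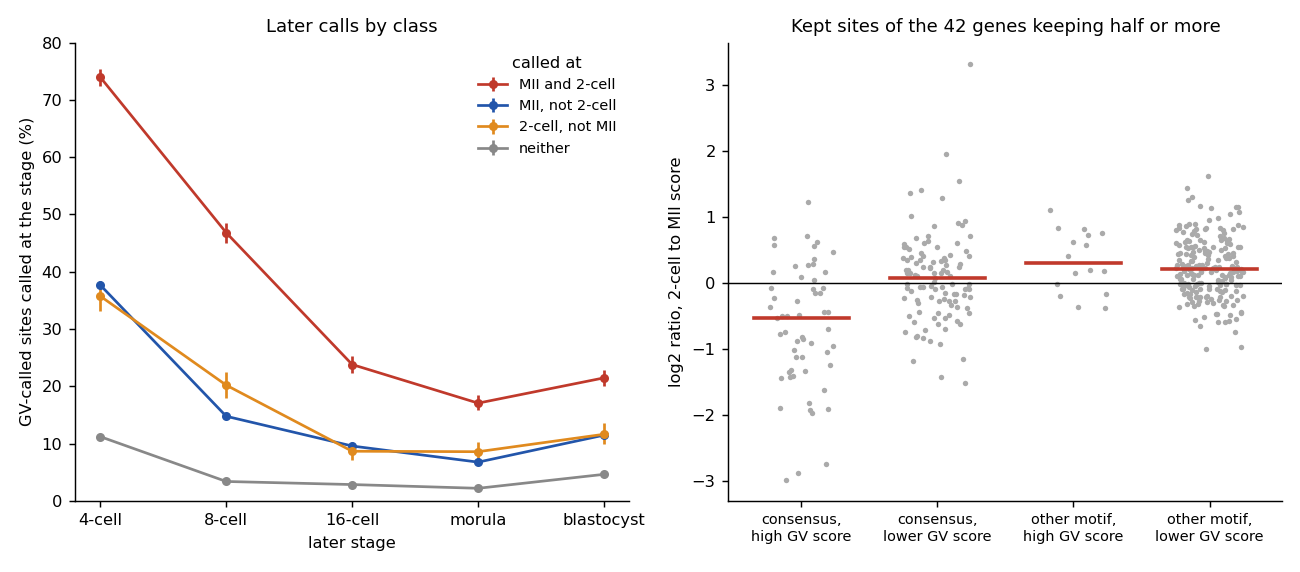
Left, share of GV-called sites called at each later stage (%), by their calls at MII and 2-cell, with exact 95% intervals. Right, log2 ratio of 2-cell to MII score for kept sites of the 42 genes that kept at least 50% of their MII calls, by motif (consensus means DRACH) and GV score (high from 0.442), each point a site and red lines medians, of which the consensus sites with high GV scores have the lowest, -0.53.

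Single DRACH sites with both scores at least 0.2 show how far the scores lay apart. The ggAca site of BMP15 at position 88810097 had 6.74 at GV, 2.96 at MII and 0.374 at the 2-cell stage, a log2 ratio of -2.99, and had 0.405 in 4-cell and 0.399 in 8-cell embryos. A second ggAca site of BMP15 at position 88809955 had 6.14, 2.91 and 1.15 at GV, MII and 2-cell. A site of BMP15 outside the consensus, tgAcg at position 88804206, had 0.417, 0.427 and 0.669. The pair of BMP15 sites with the highest GV scores thus had lower 2-cell scores, in a gene that kept 19 of 24 calls.

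The other sites with the lowest ratios were also ggAca or ggAct. Since both scores had to be at least 0.2, a ratio this low required a high MII score. MII calls had a median score of 1.35 at ggAca and 0.383 at ggAct, against 0.323 at ggAcc, 0.261 at agAct and 0.185 at agAcc. The part of this in the motifs of these sites was not tested. CENPV, a centromere protein, had 1.41 at MII and 0.249 at 2-cell at its ggAca site on chromosome 19, position 33274979. ARF4, a small GTPase of vesicle traffic, had 1.16 and 0.278 at position 43625254 of chromosome 22. RGS16 had 0.715 and 0.201 at its ggAct site. SALL4, a zinc finger factor of pluripotent cells, had 3.17 and 0.908 at position 79572840 of chromosome 13, and its score was 2.93 in 8-cell and 5.89 in 16-cell embryos. This site was thus scored as high later as at GV, whereas those of BMP15 and CENPV were listed at 0 in morulae and blastocysts.

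The 5 highest ratios were in other genes, and their motifs were more varied. PPP2R1A, the scaffold subunit of protein phosphatase 2A, went from 0.301 at MII to 3.14 at 2-cell, a log2 ratio of 3.38, was listed at 0 at the 4-cell stage and had 2.11 at the 8-cell stage. PLEKHG1, a guanine nucleotide exchange factor, went from 0.410 to 3.03 at a gaAct site on chromosome 9, position 87963191, and was listed at 0 afterwards. TENT5C, a poly(A) polymerase, had 0.257 and 1.21 at a gaAct site, MCM10, a replication initiation factor, 2.10 and 9.30 at a gaAcc site, and FN3KRP, a kinase that removes sugar adducts from proteins, 0.239 and 0.987 at a ggAcc site. With 1 score per stage, a single value of this kind has no known error. The gaAct site of AURKA had scores of 4.17, 3.84, 3.63, 4.29, 4.29, 3.36, 3.21 and 5.32 from GV to blastocyst.

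Some genes had 2-cell calls that MII lacked. WAC, an adaptor of histone H2B ubiquitination, and MPHOSPH9, a centriolar protein, had 8 such sites each, ANKRD17 had 7, and CTNND1 and MAPRE1, a microtubule plus-end protein, had 6 each. PLEKHG1, LEO1, NUP153 of the nuclear pore, TENT4A, a poly(A) polymerase, and BOC, a hedgehog co-receptor, had 5 each. MSX1 also had 5 and was left out of the 10 genes because it had fewer MII calls, by which ties were ordered. The 10 genes together held 60 such sites and kept 97 of 305 MII calls, but PLEKHG1 kept 8 of 58, 13.8%, under the 15.6% of all sites. They were ranked by the number of such sites and not by a share, which favours genes with many GV-called sites. PLEKHG1 had 109 GV-called sites and WAC 46. Over all GV-called sites without an MII call, 3.14% were called at 2-cell. In NUP153 the kept sites had a median score of 0.154 at MII and 0.326 at 2-cell. At all sites called at 2-cell and not at MII, the GV score was low, with a median of 0.158 against 0.244 at kept sites.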

How the data were processed

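Each stage column was taken as 1 pooled value of its treated total RNA libraries; the sources used here do not say so. The authors deposited, per adenosine and stage, a score with chromosome, position, strand, gene, region and 5-base motif. Not given in the sources used here are its scale, the site caller, the genome build, and how arms and replicates were joined. The submitters' processing notes name STAR 2.5.3a and Trimmomatic 0.39. The table analysed here ends at 65536 lines, a limit of older spreadsheets, so sites first called after MII were not analysed here. No column was left without a stage. Read depth per sample is unknown, so precision of a score is too.

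Members, gene lists and rules were chosen with earlier results of these data known. Shares, exact 95% Clopper-Pearson intervals, Newcombe intervals of differences, and within-gene differences weighted over genes were computed in Python 3.11.15 with numpy 2.4.6, pandas 2.3.3 and scipy 1.17.1, drawn with matplotlib 3.10.9 and tested on simulated data. The named genes were protein-coding, carried a symbol and had 10 or more MII calls, and were ranked by kept calls minus MII calls times the overall share: the highest 15 and lowest 15. Added were the 10 genes with the most calls at 2-cell and not at MII, up to 4 members per list by MII calls, and the 5 highest and 5 lowest log2 ratios at DRACH sites with both scores at least 0.2. Further list members, the gene groups by share kept, ALKBH5, HBEGF and the sites shown of KMT2C, NCOR1, AURKA and BMP15 beyond that rule were picked with their values in view. Some genes that these rules select are not reported here. Of 33 lists, those not named in the results are shown only in the plot of lists. The alternatives tried were calls from 0.2 or from any positive score, DRACH sites, protein-coding genes, genes with a 2-cell call, no ribosomal protein genes, equal gene weights, 10 classes of the MII score, coding sequence, and lists without their gene with most calls.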

Additional observations from a re-analysis of the deposited data

Results flagged for a closer look

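Outside the GV-called sites, 5118 adenosines were listed, and 151 of them were called at the 2-cell stage. They were picked out because they carry 2-cell calls in rows that no comparison above uses. Of these, 129 were also called at MII and 21 lay in ribosomal protein genes. Among the 4804 of these adenosines called at MII, 2.69% were called at the 2-cell stage, against 15.6% of the GV-called sites called at MII. They cover part of the genome, so the 2 shares were taken over different sets of genes.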

How the results depend on the processing

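No paired analysis was possible because the table holds 1 score per stage and no replicate columns, and leaving out replicates was not run for the same reason. No result reversed, and 24 of the 41 alternative values stayed near the reported ones. A score of at least 0.2 gave a kept share of 13.7%, 3.32% for 2-cell calls without an MII call, a median log2 ratio of 0.19 and 26 genes with no kept call. Any score above 0 gave 16.6%, 2.29% and a ratio of 0.35. DRACH sites alone gave 2.59% for 2-cell calls without an MII call, a 3′ UTR difference of 0.187 points, a ratio of 0.16 and 13 genes. Genes with a 2-cell call gave a kept share of 24.9%, 7.49% without an MII call, a DRACH difference of 4.88 points, a 3′ UTR difference of 3.06 points and 27 genes. That set was chosen by the 2-cell calls themselves, so both shares rise by construction and its values check nothing. Its 27 genes are those with a 2-cell call only at sites that MII lacked. The within-gene DRACH difference was 5.02 points. The cause of the moves in the other sets was not tested, apart from the fewer sites or genes that enter a stricter set. How many genes still had 10 or more MII calls in each set is not reported here. The counts of 26, 13 and 27 genes therefore cannot be read as shares beside the 75 of 498. Without its gene with most MII calls, a list crossed the overall share in 5 of 30 cases (readers, genome activation, junctions, ribosomal proteins and nuclear pore). The genome activation list kept 10 of 28 calls, all in RBBP7, and transcription genes went from 13.6% to 5.69% without LEO1. Junction genes went from 18.8% to 13.6% without CTNND1. With calls from 0.2, 4 of 31 lists crossed the overall share (mRNA decay, writers, readers, RAB genes), remodellers went from 14.8% to 8.85% and mitochondrial ribosomal protein genes from 6.52% to 0. At DRACH sites alone 3 of 31 crossed it (cumulus markers, RAB genes and nuclear pore), while oocyte genes kept 52.0%, meiotic genes 28.5% and chaperones 28.7%.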
